A study of Mus musculus with 44 samples.

Results

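The genes described here are 42 interferon-related genes that sense viral nucleic acid, relay the interferon signal or block viruses: both chains of the type I interferon receptor, 3 transcription factors, 6 nucleic acid sensors and 31 effectors and modifiers. They were chosen by name, with earlier results of these data known. All probe sets of the array that carry the symbol of 1 member and of no other gene were taken. Such probe sets were found for 41 of the 42 members, 78 probe sets in all out of 34945 with 1 symbol, and Ifi44 had none. Of the 41 members, 40 passed the filter on low signals and were tested among 11970 genes. The exception was Tlr3, an endosomal receptor for double-stranded RNA.

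Type I interferon binds its receptor and activates a complex that holds the factors STAT2 and IRF9, enters the nucleus and binds a DNA element called the interferon-stimulated response element (ISRE). The genes so induced include the RNA sensors that trigger interferon production in the first place and IRF7, which drives interferon genes, so the system feeds itself. Its other products restrict viruses at entry, during genome copying or at release. B cells respond to interferon, and lipopolysaccharide (LPS) can start the same programme through its receptor TLR4.

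The cells were CH12.LX, a mouse B cell lymphoma line, activated with LPS from Salmonella typhosa. One arm had 10 nM of the dioxin TCDD, which binds and activates the aryl hydrocarbon receptor (AhR), a transcription factor, and the other had the solvent DMSO alone (0.01%), called vehicle. All vehicle and TCDD cells had LPS, and they were harvested 8, 12, 24, 36 and 48 h later. Untreated cells were taken at 0 h. The 44 arrays, 1 per culture, form 11 groups of 4, and each replicate number stands for 1 day of handling. As CH12.LX is 1 transformed line, the replicates vary by day and culture, not by animal. The study asked how TCDD altered the transcriptome of these activated B cells over time.

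Levels are given as log2 of the normalized signal plus 16, whose lowest possible value is 4, and changes as differences of those values ± the standard error from limma with 4 arrays per group. A change of 1 is a doubling except in dim genes, where the added constant shrinks it. A gene was called at an adjusted p under 0.05 over all 11970 genes, and "rose" or "fell" is used of called changes. Cyp1a1, the classic AhR target, rose with TCDD at each of the 5 times, by 4.51 to 6.01 (adjusted p at most 2.29e-19). Ahrr, Tiparp and Cyp1b1, other AhR targets, rose at all 5 times too, and Nqo1 at 8, 12 and 24 h. Of 9 B cell markers with a probe set, 8 passed the filter. Among markers of other cell types, 6 of 9 T cell, 7 of 12 macrophage and monocyte, 5 of 6 plasmacytoid dendritic cell, 2 of 6 natural killer cell, 5 of 7 fibroblast and 0 of 3 erythroid markers passed. The summed level over the groups ran from 13.30 to 14.60 for the B cell list, 11.58 to 12.49 for the plasmacytoid dendritic cell list, 10.65 to 11.81 for the macrophage list and 10.17 to 10.48 for the T cell list. It ran from 7.90 to 9.38 for the natural killer cell list (lowest in untreated cells), from 8.12 to 9.64 for the fibroblast list and from 4.64 to 6.47 for the erythroid list. Among those that passed were Cd8a (group means 8.62 to 9.38), Zap70 (7.22 to 8.62), Csf1r (7.65 to 10.64), Cd68 (9.43 to 10.67), Prf1 (7.31 to 8.76) and Tcf4 (11.07 to 12.23), while Cd4, Cd3d, Lyz2, Itgam, C1qa, Siglech, Ncr1 and Klrd1 stayed below the filter. The sum of the plasmacytoid dendritic cell list rests mainly on Tcf4, as its next brightest gene was Klk1 (8.50 to 9.45). Any part of such transcripts in the results was not tested. The p-values here rest on how cultures of 1 line varied from day to day, and the number of arrays limits the precision. The main fit has no term for the day, so TCDD and vehicle cultures of the same day were not paired in it. Median array signals before normalization ran from 45.2 to 99.2. In bulk RNA a change in every cell and a change in the share of cells that express a gene, or fewer cells and less RNA per cell, cannot be told apart.

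Most members rose with TCDD, the largest number at 24 h, and none fell. Of 40 members, 5 rose at 8 h, 29 at 12 h, 34 at 24 h, 27 at 36 h and 12 at 48 h. Over all 11970 genes, the share that rose was 2.75% at 8 h, 6.07% at 12 h, 4.8% at 24 h, 3.49% at 36 h and 4.31% at 48 h. No member fell at any of these times, where 1.4%, 3.14%, 2.77%, 2.4% and 4.54% of all genes fell. The median TCDD change over the members was 0.32 at 8 h, 0.67 at 12 h, 1.12 at 24 h, 0.65 at 36 h and 0.41 at 48 h, while the median over all genes stayed between -0.021 and 0.012. In the mean of the 5 TCDD effects 36 members rose and 0 fell, against 11.1% and 9.86% of all genes. Ifnar1, Adar, Ifi203 and Daxx were the 4 members not called there. The change was largest at 24 h in 32 of 40 members, at 12 h in 5, at 36 h in 2 and at 8 h in 1. TCDD cells at 24 h had the highest group mean in 29 members, and untreated cells the lowest in 26.

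Without replicate 2 the counts were 0 at 8 h, 17 at 12 h, 13 at 36 h and 5 at 48 h, and the shares of all genes that rose were lower too, at 1.4%, 3.06%, 1.63% and 2.05%. Without replicate 3 or 4, 2 members rose at 8 h (1.64% and 2.12% of all genes). Without replicate 4, 17 rose at 36 h (2.68%), and without replicate 3 or 4, 8 rose at 48 h (2.76% and 3.25%). With the day as a replicate block, 10 members rose at 8 h (4.92% of all genes rose), 34 at 12 h (9.9%), 37 at 24 h (7.26%) and 30 at 36 h (6.06%). In that fit 17 rose at 48 h (7.47%) and Adar fell (8.15% of all genes fell). The count called at 8 h was 2 with only the arrays compared in the fit (2.61% of all genes called), 3 with no filter (2.21%) and 9 without 4 arrays that stood apart (5.85%). The count called at 48 h was 6 with only the arrays compared (2.6%).

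**Figure D1:**
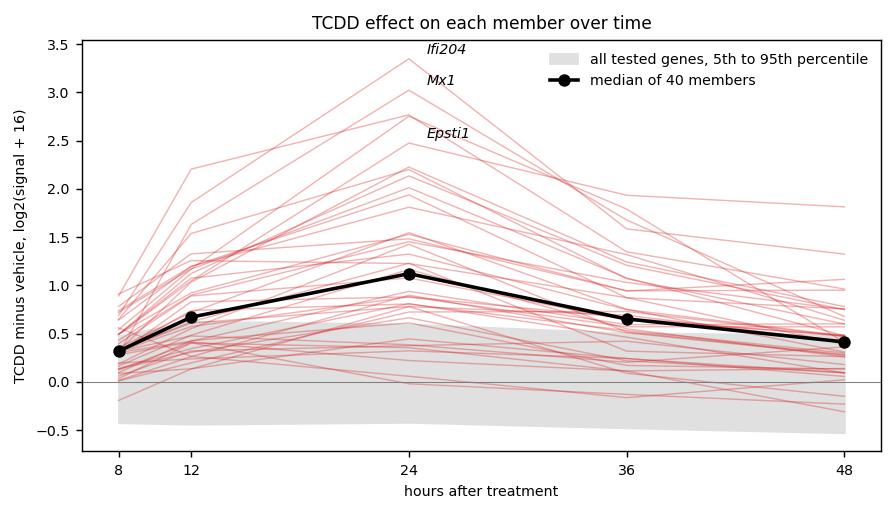
TCDD minus vehicle, in log2(signal + 16), against hours after treatment for each of 40 members (red lines), with their median (black) and the span from the 5th to the 95th percentile of all 11970 tested genes (grey). The members' median climbs from 0.32 at 8 h to 1.12 at 24 h and is 0.41 at 48 h, and at 24 h the grey span ends at 0.60.

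In vehicle cells, too, more members were higher than lower against untreated cells, and the count higher was largest at 48 h. Effects of LPS, vehicle and time in culture cannot be told apart here, and the 5 comparisons share the same 4 untreated arrays. At 8 h 20 members were higher and 3 lower (11.2% and 13.4% of all genes), and at 12 h 16 were higher and 2 lower (11% and 13.8%). At 24 h 19 were higher and 0 lower (9.39% and 10.3%), at 36 h 27 and 0 (15.4% and 15.9%), and at 48 h 29 and 0 (23.4% and 20.5%). The 3 that fell at 8 h were Ifnar1, Ifi203 and Ifi27l2a, and the 2 at 12 h were Ifnar1 and Ifnar2. The members' median change was 0.36 at 8 h, 0.36 at 12 h, 0.41 at 24 h, 0.71 at 36 h and 0.83 at 48 h. The 8 h fall of Ifi203 was not called without any 1 replicate (-0.94 to -0.35), that of Ifi27l2a not without replicate 2 (-0.36), 3 (-0.33) or 4 (-0.32), and that of Ifnar1 not without replicate 1 (-0.33) or 2 (-0.23). The 12 h fall of Ifnar2 was not called without replicate 1 (-0.31), 2 (-0.20) or 4 (-0.24). Without replicate 2, 14 members were called at 8 h (17.8% of all genes, against 24.6% with all arrays) and 11 at 24 h (13.9% against 19.7%). With only the arrays compared in the fit, 9 were called at 8 h, 7 at 12 h, 9 at 24 h and 17 at 36 h, where 12.7%, 10.9%, 10.1% and 17.2% of all genes were called.

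The 4 untreated arrays differed among themselves. Measured against the untreated mean, the median over the members was -0.30, -0.12, 0.21 and 0.27 in replicates 1 to 4, while over all genes it lay between -0.023 and 0.048. Replicates 3 and 4 are also among the 4 arrays that stood apart in technical measures (the ratio of signals from the ends of Tfrc, or the median signal), with vehicle replicate 4 at 12 h and vehicle replicate 2 at 48 h. Their part in the results was not tested beyond leaving them out. In vehicle against untreated cells, 22, 23, 23, 32 and 32 members were called without these 4 arrays at 8, 12, 24, 36 and 48 h. Of all genes, 20.6%, 18.6%, 15.3%, 23.7% and 38.1% were called in those fits. With all arrays the counts were 23, 18, 19, 27 and 29 (24.6%, 24.8%, 19.7%, 31.3% and 43.9% of all genes). The vehicle arrays lay between 0.23 and 0.92 and the TCDD arrays between 0.56 and 1.69. At each of the 5 times the lowest TCDD array lay above the highest vehicle array, and the 4 TCDD arrays at 24 h were close together, at 1.60 to 1.69.

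**Figure D2:**
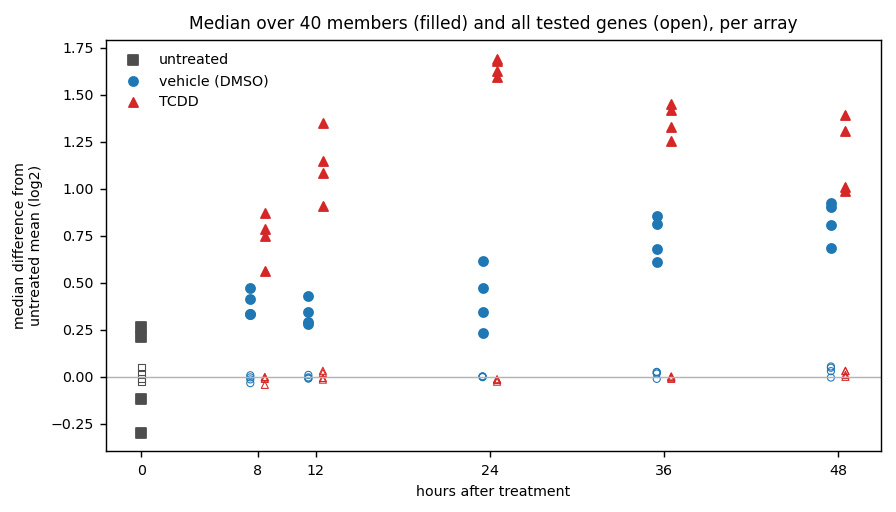
Median over 40 members of the difference from the untreated mean, in log2(signal + 16), for each of 44 arrays against hours after treatment (filled symbols), beside the same over all tested genes (open symbols). TCDD arrays (red) reach 1.60 to 1.69 at 24 h, where vehicle arrays (blue) lie at 0.23 to 0.62, and the open symbols stay near 0.

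**Figure D3:**
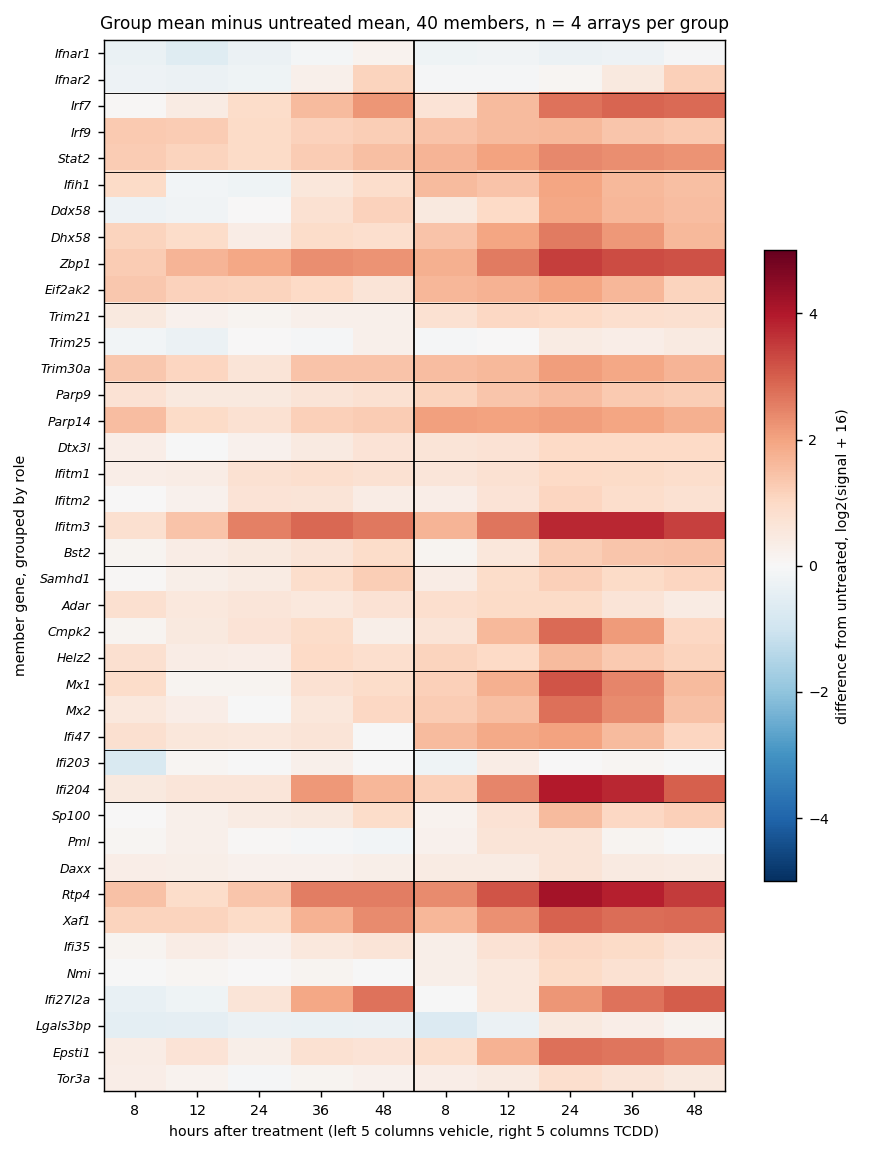
Group mean minus untreated mean of 40 members (rows, grouped by role) in vehicle cells (left) and TCDD cells (right) by hours after treatment, on the log2(signal + 16) scale, 4 arrays per group. Red is higher than untreated: Rtp4, Ifi204, Ifitm3 and Zbp1 are deepest in the TCDD columns at 24 and 36 h, and Ifi27l2a is deepest in the vehicle column at 48 h.

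To show what these genes carry near their starts, promoters from RefSeq (build GRCm38.p6, 250 bases before to 50 after each start) were searched on both strands for 3 motifs: the ISRE as GAAANNGAAA, the gamma-activated site (GAS) as TTCNNNGAA, and the core of the AhR element as GCGTG. The table holds promoters for 32 of the 42 members, and not for Rtp4, Dhx58, Parp14, Ifi204, Parp9, Tor3a, Ifi27l2a, Mx2, Mx1 and Zbp1. An ISRE match occurs in at least 1 promoter of 10 of the 32 members (Ifi203, Ifih1, Ddx58, Trim21, Trim30a, Ifitm2, Ifitm3, Bst2, Stat2 and Eif2ak2) and in 3.99% of 27025 genes. GAS matches occur in 8 of 32 members and 9.55% of genes, and AhR core matches in 11 of 32 members and 35.2% of genes. A match is a description of letters, not a binding site, and an absent match says nothing about the factor. The 4 ISRE-bearing promoters below belong to members with per-array values in the text. Epsti1 is added for its large TCDD change with none of the 3 motifs in the window, and Ifnar1 as the member with the smallest mean TCDD change. Capitals mark every match to any of the 3 motifs.

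Ifih1 (chr2:62646206-62646505, minus strand): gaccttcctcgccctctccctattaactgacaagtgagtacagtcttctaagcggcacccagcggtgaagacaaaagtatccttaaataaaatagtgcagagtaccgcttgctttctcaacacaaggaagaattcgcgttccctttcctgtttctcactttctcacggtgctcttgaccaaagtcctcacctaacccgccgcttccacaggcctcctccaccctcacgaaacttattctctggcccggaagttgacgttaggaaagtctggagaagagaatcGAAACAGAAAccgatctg
Ddx58 (chr4:40239776-40240075, minus strand): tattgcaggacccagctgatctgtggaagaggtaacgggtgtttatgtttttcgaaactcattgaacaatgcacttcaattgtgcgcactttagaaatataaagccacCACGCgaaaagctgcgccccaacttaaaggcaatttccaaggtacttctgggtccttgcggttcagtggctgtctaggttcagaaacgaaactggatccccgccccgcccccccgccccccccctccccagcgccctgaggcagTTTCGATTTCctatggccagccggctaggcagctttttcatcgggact
Ifitm3 (chr7:141010695-141010994, minus strand): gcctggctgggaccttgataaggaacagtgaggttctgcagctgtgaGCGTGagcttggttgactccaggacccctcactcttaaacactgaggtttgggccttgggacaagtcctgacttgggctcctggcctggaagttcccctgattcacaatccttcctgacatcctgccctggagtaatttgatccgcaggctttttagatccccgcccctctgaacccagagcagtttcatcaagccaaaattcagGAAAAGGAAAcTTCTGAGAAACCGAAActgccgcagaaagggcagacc
Stat2 (chr10:128270248-128270547, plus strand): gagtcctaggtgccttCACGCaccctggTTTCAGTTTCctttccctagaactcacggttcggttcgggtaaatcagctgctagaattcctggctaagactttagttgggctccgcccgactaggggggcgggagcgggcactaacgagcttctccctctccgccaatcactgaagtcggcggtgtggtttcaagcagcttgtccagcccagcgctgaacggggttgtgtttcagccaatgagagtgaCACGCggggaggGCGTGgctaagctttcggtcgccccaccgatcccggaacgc
Epsti1 (chr14:77903989-77904288, plus strand): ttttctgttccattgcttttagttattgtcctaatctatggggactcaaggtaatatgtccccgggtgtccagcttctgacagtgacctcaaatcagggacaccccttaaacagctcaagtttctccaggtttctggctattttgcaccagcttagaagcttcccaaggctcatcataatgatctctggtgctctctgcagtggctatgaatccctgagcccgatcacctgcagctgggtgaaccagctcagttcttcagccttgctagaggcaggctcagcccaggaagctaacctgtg
Ifnar1 (chr16:91484965-91485264, plus strand): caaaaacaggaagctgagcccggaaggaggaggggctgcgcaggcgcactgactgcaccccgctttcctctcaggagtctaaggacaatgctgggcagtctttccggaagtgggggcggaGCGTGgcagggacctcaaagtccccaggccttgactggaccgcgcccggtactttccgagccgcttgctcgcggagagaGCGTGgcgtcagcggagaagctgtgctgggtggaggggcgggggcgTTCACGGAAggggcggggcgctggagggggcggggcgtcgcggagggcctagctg

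Counted from base 1 of each run, the ISRE match of Ifih1 is GAAACAGAAA at bases 283 to 292 and that of Ddx58 lies at 253 to 262, on the other strand (TTTCGATTTC). Ifitm3 has one at 253 to 262 (GAAAAGGAAA) and another at 270 to 279 (GAAACCGAAA), which shares 3 bases with a GAS match at 264 to 272. In Stat2 the ISRE match is at 29 to 38 on the other strand, and 3 AhR core matches stand at 17, 248 and 260. Ifnar1 holds a GAS match at 246 to 254 and 2 AhR core matches, and no ISRE match.

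Of the receptor chains, Ifnar2 rose in the mean TCDD effect and Ifnar1 was not called. Ifnar1, the chain that carries TYK2, had a mean TCDD change of 0.031 ± 0.051 (adjusted p = 0.748), with 0.41 at 12 h, its 1 called time, and -0.23 at 48 h. Its call at 12 h was lost without replicate 1 (0.42) and without replicate 2 (0.20). In vehicle cells it fell by 0.34 at 8 h and by 0.59 at 12 h. Ifnar2, the chain that binds STAT2, rose by 0.21 ± 0.046 in the mean TCDD effect (adjusted p = 0.000621). Its change at 24 h was 0.32 ± 0.10 (adjusted p = 0.0468), a call that was lost without any 1 of the 4 replicates (0.27 to 0.36). Its probe sets split in vehicle cells at 48 h: the one that represents the gene rose by 1.12 and the other 2 had -0.81 and -0.43, so no direction is given.

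All 3 transcription factors rose with TCDD at 24 h and in the mean effect, where 4.8% and 11.1% of all genes rose. Irf7, the factor that drives interferon genes, read 8.49, 9.38, 9.65 and 10.05 in the untreated arrays, 9.88, 10.36, 10.68 and 10.33 in the vehicle arrays at 24 h and 11.66, 12.21, 12.26 and 12.34 in the TCDD arrays at 24 h. The TCDD arrays lay above every vehicle array of that time, and the untreated arrays spread most. Its TCDD change at 24 h was 1.81 ± 0.24, 3.51-fold (adjusted p = 1.17e-06). Vehicle cells approached the TCDD level later: the vehicle change was 0.051 at 8 h, 0.92 at 24 h and 2.20 ± 0.24 at 48 h (adjusted p = 2.5e-09). The vehicle arrays at 48 h read 11.38, 11.65, 11.46 and 11.89 against 11.79, 12.50, 12.36 and 12.28 with TCDD. These groups overlap, though each replicate's TCDD array lay above its vehicle array, and the TCDD change of 0.64 was not called.

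Stat2, the transactivating partner in the interferon-activated complex, read 7.24, 7.69, 6.75 and 6.86 in the untreated arrays, 7.72, 8.21, 8.50 and 7.90 in the vehicle arrays at 24 h and 9.34, 9.46, 9.70 and 9.64 in the TCDD arrays at 24 h. The 3 groups do not overlap. It rose by 1.45 ± 0.19 with TCDD at 24 h (adjusted p = 7.19e-07) and by 0.91 ± 0.085 in the mean effect. In vehicle cells it was already higher at 8 h, by 1.27 ± 0.19, and by 1.50 ± 0.19 at 48 h. Irf9, the DNA-binding subunit of that complex, rose in vehicle cells at all 5 times, by 0.96 to 1.31, and with TCDD by 0.67 ± 0.13 at 24 h, its 1 called time.

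The 5 tested sensors all rose with TCDD at 24 h and in the mean effect (4.8% and 11.1% of all genes rose). Ifih1 encodes a cytosolic helicase that senses long double-stranded RNA. It read 8.72, 8.99, 9.91 and 10.00 in the untreated arrays, 8.91, 9.29, 9.47 and 9.02 in the vehicle arrays at 24 h and 11.44, 11.45, 11.43 and 11.17 in the TCDD arrays at 24 h. The TCDD arrays stood above both other groups, which overlap with each other. The change was 2.20 ± 0.23 at 24 h, 4.6-fold (adjusted p = 5.26e-09), against 0.65 at 8 h and 0.60 at 48 h. In vehicle cells its level was 10.35 ± 0.38 (SD, n = 4) at 8 h, 9.17 ± 0.25 at 24 h and 10.30 ± 0.09 at 48 h. The TCDD change is measured from these levels, so at a given TCDD level a lower vehicle level enlarges it by construction.

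Ddx58, which encodes RIG-I, the sensor of uncapped RNA ends, read 8.25, 8.40, 9.38 and 9.13 in the untreated arrays, 8.56, 8.74, 8.96 and 8.92 in the vehicle arrays at 24 h and 10.57, 10.96, 10.87 and 10.54 in the TCDD arrays at 24 h. It rose by 1.94 ± 0.20 at 24 h (adjusted p = 3.38e-09) and was 1 of the 5 members that rose at 8 h (0.74 ± 0.20, adjusted p = 0.0207). That early call was lost without replicate 2 (0.65), 3 (0.72) or 4 (0.78). Vehicle cells differed from untreated cells by -0.23 at 8 h and rose by 1.14 ± 0.20 at 48 h. Dhx58, a related helicase that regulates both sensors, rose with TCDD by 2.23 ± 0.26 at 24 h, while its untreated arrays ran from 6.86 to 9.24.

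Zbp1, a sensor of Z-form nucleic acid that can trigger cell death, read 8.44, 9.12, 9.38 and 9.85 in the untreated arrays, 10.86, 11.17, 11.55 and 10.94 in the vehicle arrays at 24 h and 12.67, 12.68, 12.70 and 12.60 in the TCDD arrays at 24 h. The 3 groups do not overlap, and the TCDD arrays lie close together. It rose by 1.53 ± 0.17 with TCDD at 24 h (adjusted p = 1.56e-08), by 0.95 ± 0.17 at 48 h, and in vehicle cells at all 5 times, by 1.27 at 8 h up to 2.31 at 36 h. Eif2ak2, the kinase PKR that halts translation on double-stranded RNA, rose with TCDD by 0.88 ± 0.20 at 24 h and had its largest vehicle change at 8 h (1.34 ± 0.20). Tlr3 had group means between 4.25 and 5.40 over its 2 probe sets, below the filter limit of 6.21, and was not tested.

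**Figure D4:**
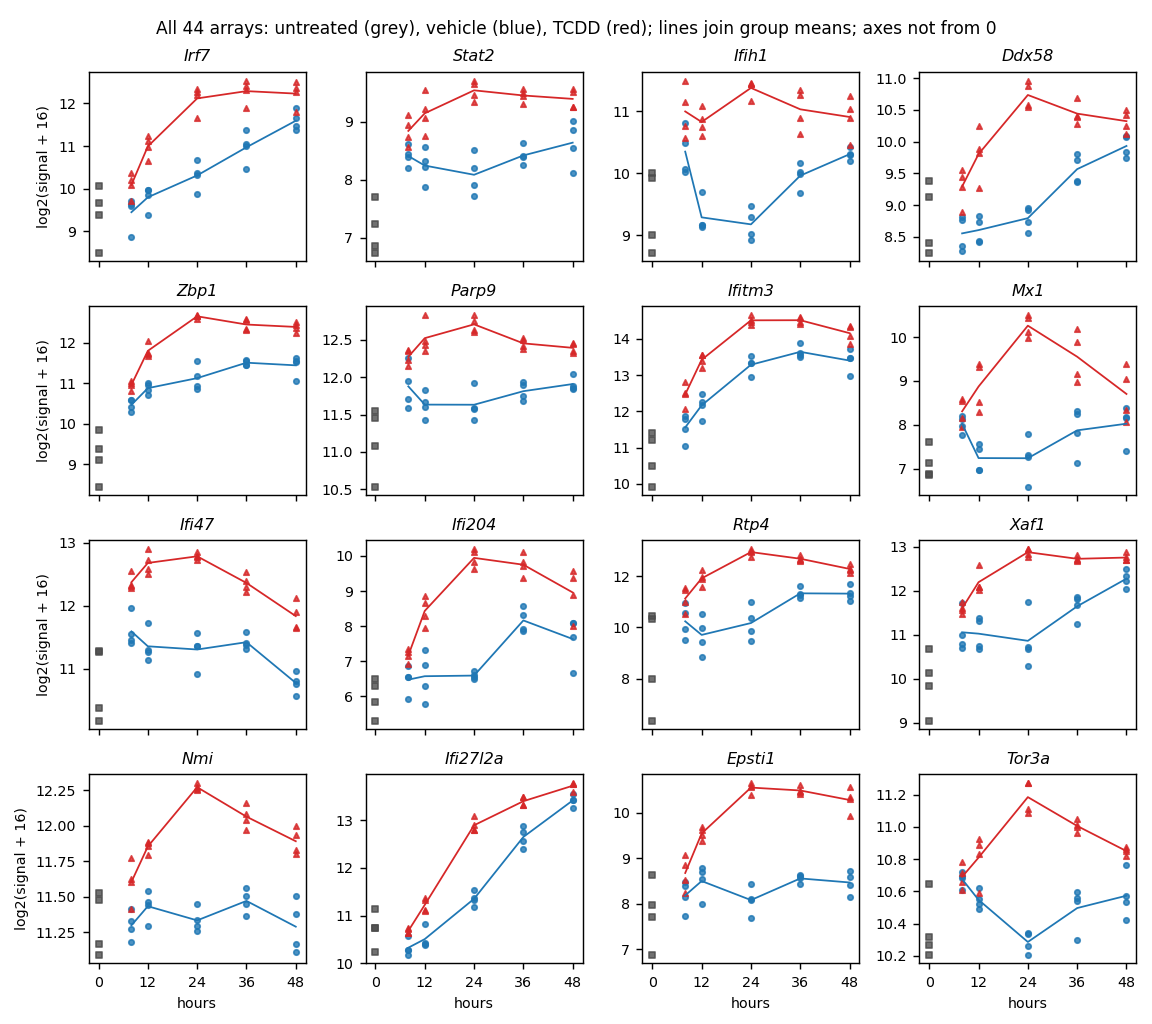
Log2(signal + 16) of the 16 members with per-array values, in all 44 arrays against hours after treatment: untreated (grey squares), vehicle (blue circles) and TCDD (red triangles), with lines through the group means. TCDD arrays lie above all vehicle arrays at 24 h in each panel. Of the 16, 12 were picked for a small p of the TCDD effect or its change with time. Such gaps follow in part from that choice. Irf7, Ifi27l2a and Xaf1 in vehicle cells climb towards the TCDD level by 48 h, and Ifi47 and Nmi do not.

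Of 6 ubiquitin ligases of the TRIM family and ADP-ribosylation genes, 5 rose with TCDD at 24 h (4.8% of all genes) and 6 in the mean effect (11.1%). Trim30a, a TRIM protein of the mouse, rose by 1.43 ± 0.18 at 24 h, and Trim21, a cytosolic antibody receptor, by 0.88 ± 0.16. Trim25, the ligase that activates RIG-I, had 0.38 ± 0.12 at 24 h (adjusted p = 0.0545, and 0.0143 with the replicate block) and rose by 0.27 ± 0.055 in the mean effect. Parp9, a macrodomain protein, and Dtx3l, its partner ligase, rose by 1.08 ± 0.15 and 0.81 ± 0.12 at 24 h, and Parp14, a mono-ADP-ribosyltransferase, by 1.32 ± 0.22. Parp9 read 10.53, 11.08, 11.46 and 11.55 in the untreated arrays, 11.43, 11.59, 11.93 and 11.58 in the vehicle arrays at 24 h and 12.61, 12.64, 12.84 and 12.75 in the TCDD arrays at 24 h. Its TCDD arrays lay above all others of the 3 groups, and only untreated replicates 3 and 4 reached the vehicle range (adjusted p at 24 h = 1.26e-06). In vehicle cells the changes of Parp9, Parp14 and Dtx3l at 48 h were 0.76 ± 0.15, 1.29 ± 0.22 and 0.70 ± 0.12, and all 3 were called.

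Restriction factors at membranes rose in the mean TCDD effect (4 of 4), with TCDD at 24 h (3 of 4) and in vehicle cells at 48 h (4 of 4). Of all genes 11.1%, 4.8% and 23.4% rose in these comparisons. Ifitm3, a transmembrane protein that blocks viral entry at endosomes, read 9.92, 10.49, 11.41 and 11.22 in the untreated arrays, 12.96, 13.33, 13.53 and 13.34 in the vehicle arrays at 24 h and 14.38, 14.67, 14.48 and 14.53 in the TCDD arrays at 24 h. The 3 groups do not overlap, and the step from untreated to vehicle is larger than that from vehicle to TCDD. It rose in vehicle cells by 0.80 ± 0.22 at 8 h, 2.53 ± 0.22 at 24 h and 2.64 ± 0.22 at 48 h. With TCDD it was called at all 5 times, from 0.91 ± 0.22 at 8 h (adjusted p = 0.0079) through 1.26 ± 0.22 at 12 h to 0.76 ± 0.22 at 48 h. Outside 12 and 24 h its TCDD calls were lost in some fits without 1 replicate, with changes near those with all arrays. The call at 8 h was lost without replicate 2 (0.89) or 4 (0.98). That at 36 h (0.87 with all arrays) was lost without 2 (0.93) or 4 (0.88). That at 48 h was lost without 2 (0.80), 3 (0.71) or 4 (0.80). The vehicle call at 8 h was lost without replicate 2 (0.72). Ifitm1 and Ifitm2, its relatives, changed less, by 0.23 ± 0.035 and 0.35 ± 0.051 in the mean effect, and the vehicle call of Ifitm2 at 48 h was lost without replicate 3 (0.35) or 4 (0.30). At 24 h the call of Ifitm2 was lost without replicate 2 (0.40), 3 (0.37) or 4 (0.37). Ifitm1 was called at 8 h (0.28 ± 0.078), a call lost without any 1 replicate (0.26 to 0.32), and its mean effect was not called on the values as deposited (0.17, adjusted p = 0.0562). Bst2, the tether that holds budding virus at the cell surface, had 0.011 at 8 h and rose by 0.72 ± 0.090 at 24 h and 0.73 ± 0.090 at 36 h.

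Among the enzymes that act on nucleic acids or nucleotides, Cmpk2, a mitochondrial nucleotide kinase, had the largest TCDD change, 2.14 ± 0.36 at 24 h (adjusted p = 4.78e-05). It read 5.09, 4.85, 6.24 and 5.30 in the untreated arrays, 6.40, 6.02, 5.82 and 6.02 in the vehicle arrays at 24 h and 8.47, 8.45, 7.84 and 8.06 in the TCDD arrays at 24 h, with the TCDD arrays above all others. Its vehicle change at 48 h was 0.29 ± 0.36 (adjusted p = 0.557). Helz2, a helicase coactivator, rose by 1.23 ± 0.16 at 24 h. Samhd1, which degrades deoxynucleotides, rose by 0.78 ± 0.11 at 24 h and had -0.15 ± 0.11 at 48 h. Its vehicle change at 48 h was 1.23 ± 0.11 on the probe set that represents it, and 0.037 to 0.87 on the others. Adar, the enzyme that edits adenosine in double-stranded RNA, rose by 0.40 ± 0.12 at 12 h, had 0.35 ± 0.12 at 24 h and -0.31 ± 0.12 at 48 h, with a call at 12 h that was lost without replicate 2 (0.34) or 4 (0.37). Its mean effect was 0.12 ± 0.051 (adjusted p = 0.102, and 0.0391 with the replicate block). In vehicle cells Adar rose at all 5 times, by 0.54 to 0.80.

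GTPases gave some of the largest TCDD changes. Mx1, a dynamin-like GTPase that traps viral nucleoproteins, read 7.12, 6.84, 7.60 and 6.89 in the untreated arrays, 7.30, 7.27, 7.79 and 6.59 in the vehicle arrays at 24 h and 10.51, 10.44, 10.10 and 9.98 in the TCDD arrays at 24 h. The TCDD arrays stood apart from both other groups, which overlap. It rose by 3.02 ± 0.30 at 24 h (adjusted p = 2.8e-09), after 1.63 ± 0.30 at 12 h, and had 0.68 ± 0.30 at 48 h (adjusted p = 0.187). Mx2, its relative, read 4.48, 4.72, 4.54 and 4.51 in the untreated arrays, 4.70, 4.49, 4.56 and 4.46 in the vehicle arrays at 24 h and 7.94, 7.82, 6.95 and 6.51 in the TCDD arrays at 24 h. The untreated and vehicle arrays of Mx2 were near the lowest possible value of 4, so its change of 2.75 ± 0.54 understates the ratio of signals. Vehicle arrays of Mx2 at 48 h split into 6.75 and 6.29 in replicates 1 and 2 and 4.57 and 4.79 in replicates 3 and 4.

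Ifi47, a GTPase of the immunity-related family that acts at pathogen vacuoles, read 10.17, 10.38, 11.27 and 11.28 in the untreated arrays, 10.92, 11.37, 11.57 and 11.36 in the vehicle arrays at 24 h and 12.73, 12.85, 12.79 and 12.78 in the TCDD arrays at 24 h. The TCDD arrays lie close together and above all the rest. It rose with TCDD at all 5 times, by 0.78 ± 0.18 at 8 h, 1.33 ± 0.18 at 12 h, 1.48 ± 0.18 at 24 h, 0.94 ± 0.18 at 36 h and 1.06 ± 0.18 at 48 h (adjusted p at most 0.00458). Without replicate 2 the change at 8 h was 0.75 and not called. In vehicle cells it rose by 0.82 at 8 h, 0.58 at 12 h, 0.53 at 24 h and 0.65 at 36 h. The vehicle change at 48 h was -0.001 ± 0.18. Without the 4 arrays that stood apart, that change was 0.51 and was called.

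Ifi204 had the largest TCDD change of any member at 24 h on the log2(signal + 16) scale, which understates the changes of dim genes, among them Mx2, and Ifi203, also of the p200 family of DNA-binding proteins, none that was called. Ifi204 read 6.49, 6.30, 5.84 and 5.31 in the untreated arrays, 6.60, 6.54, 6.74 and 6.50 in the vehicle arrays at 24 h and 10.20, 10.12, 9.64 and 9.82 in the TCDD arrays at 24 h. The TCDD arrays stand far above every vehicle array. It rose by 3.35 ± 0.31 at 24 h (adjusted p = 6.34e-10) and by 1.86 ± 0.31, 1.59 ± 0.31 and 1.32 ± 0.31 at 12, 36 and 48 h, the last not called without replicate 2. In vehicle cells the change was 0.61 at 24 h, 2.18 ± 0.31 at 36 h and 1.65 ± 0.31 at 48 h. Ifi203 had a mean TCDD change of 0.15 ± 0.13 (adjusted p = 0.476) and fell by 0.76 in vehicle cells at 8 h. These p200 genes are close copies of each other, so probe sets may share transcripts.

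Of 3 nuclear body genes, Sp100 and Pml rose with TCDD at 24 h and in the mean effect, and Daxx was not called. The shares of all genes that rose there were 4.8% and 11.1%. Sp100 rose by 1.17 ± 0.15 at 24 h and 0.53 ± 0.068 in the mean effect. Pml, which builds these bodies, rose by 0.61 ± 0.14 at 24 h (adjusted p = 0.00396), a call lost without replicate 3 (0.62, adjusted p = 0.0546), and had -0.15 ± 0.14 in vehicle cells at 48 h. Daxx, a histone chaperone there, had 0.45 ± 0.18 at 24 h (adjusted p = 0.14) and a mean effect of 0.20 ± 0.079 (adjusted p = 0.0685, and 0.0383 with the replicate block). It was called at no single time in either comparison.

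The remaining interferon-stimulated genes, 8 tested, all rose with TCDD at 24 h and in the mean effect (4.8% and 11.1% of all genes rose). Epsti1, an interferon-induced gene first described in epithelial and stromal cells, read 6.87, 7.71, 7.96 and 8.64 in the untreated arrays, 7.69, 8.09, 8.43 and 8.11 in the vehicle arrays at 24 h and 10.40, 10.66, 10.58 and 10.59 in the TCDD arrays at 24 h. The TCDD arrays lie above all others, and vehicle and untreated arrays overlap. It rose by 2.48 ± 0.23 at 24 h (adjusted p = 3.28e-10), and had the smallest p of any member in the mean effect (1.55 ± 0.10, adjusted p = 7.31e-15). At 48 h it was still higher, by 1.81 ± 0.23, where vehicle arrays of 8.16, 8.59, 8.40 and 8.72 stood under TCDD arrays of 10.34, 10.56, 9.92 and 10.30.

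Rtp4, a chaperone-like protein of the receptor transporter family, read 6.36, 7.99, 10.33 and 10.44 in the untreated arrays, 9.48, 10.36, 10.99 and 9.86 in the vehicle arrays at 24 h and 12.76, 13.06, 13 and 12.94 in the TCDD arrays at 24 h. Its untreated arrays were low in replicates 1 and 2 and high in 3 and 4, while the TCDD arrays lie close together. It rose with TCDD by 2.77 ± 0.49 at 24 h (adjusted p = 0.000119) and in vehicle cells by 2.54 ± 0.49 at 48 h (adjusted p = 5.51e-05). Xaf1, a pro-apoptotic partner of XIAP, read 9.05, 9.84, 10.14 and 10.67 in the untreated arrays, 10.29, 10.73, 11.75 and 10.68 in the vehicle arrays at 24 h and 12.95, 12.77, 12.84 and 12.95 in the TCDD arrays at 24 h. It rose by 2.01 ± 0.25 at 24 h (adjusted p = 1.94e-07), and by 2.35 ± 0.25 in vehicle cells at 48 h, where the TCDD difference was 0.48 ± 0.25 (adjusted p = 0.272).

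Ifi27l2a, a small mitochondrial protein gene, read 10.22, 10.73, 10.73 and 11.14 in the untreated arrays, 11.32, 11.37, 11.53 and 11.18 in the vehicle arrays at 24 h and 13.10, 12.90, 12.80 and 12.80 in the TCDD arrays at 24 h. It rose by 1.55 ± 0.13 with TCDD at 24 h (adjusted p = 4.1e-11). In vehicle cells it fell by 0.38 at 8 h and rose by 0.65 ± 0.13 at 24 h, 1.95 ± 0.13 at 36 h and 2.71 ± 0.13 at 48 h (adjusted p = 9.97e-19), the largest vehicle change of any member at that time. By then the vehicle arrays read 13.44, 13.56, 13.25 and 13.43 and the TCDD arrays 13.77, 13.76, 13.79 and 13.61, a difference of 0.31 ± 0.13 (adjusted p = 0.145).

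Nmi, an interferon-induced protein that binds transcription factors, read 11.17, 11.09, 11.53 and 11.48 in the untreated arrays, 11.26, 11.33, 11.45 and 11.29 in the vehicle arrays at 24 h and 12.30, 12.26, 12.28 and 12.26 in the TCDD arrays at 24 h. Its TCDD arrays span the least of the 3 groups and lie above all others. It rose with TCDD at all 5 times, by 0.31 ± 0.089 at 8 h, 0.94 ± 0.089 at 24 h and 0.60 ± 0.089 at 48 h (adjusted p = 6.8e-10 at 24 h), and the call at 8 h was lost without any 1 replicate (0.26 to 0.34). In vehicle cells it was called at no time, with changes from -0.028 to 0.15. Ifi35, its binding partner, rose by 0.81 ± 0.13 with TCDD at 24 h and in vehicle cells by 0.64 ± 0.13 at 48 h.

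Tor3a, an interferon-induced torsin ATPase, read 10.27, 10.21, 10.64 and 10.32 in the untreated arrays, 10.21, 10.26, 10.34 and 10.34 in the vehicle arrays at 24 h and 11.11, 11.27, 11.08 and 11.27 in the TCDD arrays at 24 h. It had 0.014 at 8 h and rose by 0.90 ± 0.082 at 24 h (adjusted p = 3.19e-10). Its lowest group mean was that of vehicle cells at 24 h. Lgals3bp, a secreted scavenger receptor protein, had -0.19 at 8 h and 0.78 ± 0.21 at 24 h (adjusted p = 0.017). Its call at 24 h was lost without replicate 2 (0.74), 3 (0.82) or 4 (0.78), and that in the mean effect (0.37 ± 0.096) without replicate 2 (0.34). In vehicle cells all 5 changes of Lgals3bp were below 0, from -0.48 to -0.28, and none was called.

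Whether the TCDD effect changed with time was tested for each gene, and 19 of 40 members were called, against 6.98% of all genes. With the day as a replicate block 25 were called, against 16% of all genes: the same 19 and Irf7 (adjusted p = 0.084, and 3.5e-05 with the block), Lgals3bp (0.14 and 0.000379), Mx2, Parp9, Dtx3l and Stat2. The smallest p were those of Tor3a (adjusted p = 2.35e-05), Ifi27l2a (5.68e-05), Bst2 (0.000211), Mx1 (0.000256) and Epsti1 (0.000292). In Tor3a and Mx1 the effect went up to 24 h and down again. Without replicate 2 Epsti1 was not called. The effect in Bst2 was 0.72 and 0.73 at 24 and 36 h, and in Epsti1 it was still 1.81 at 48 h. Ifitm3 and Ifi47, with effects at every time, had interaction p of 0.763 and 0.285, which does not show that their effects were constant. Without replicate 2, 5 members were called (2.13% of all genes), and without replicate 4, 10 (3.48%).

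TCDD and vehicle changes took different sizes in different members. Ifi47, Nmi, Pml, Lgals3bp and Cmpk2 rose with TCDD at 24 h by 0.61 to 2.14. Their vehicle changes at 48 h lay between -0.28 and 0.29, with none called. At earlier times Ifi47 was higher in vehicle cells at 8, 12, 24 and 36 h, by 0.53 to 0.82, and Cmpk2 at 36 h. Ifi47 was also called in vehicle cells at 48 h without the 4 arrays that stood apart. Irf7, Xaf1, Zbp1, Ifi27l2a, Ifitm3 and Rtp4 rose in both, by 1.23 to 2.77 with TCDD at 24 h and by 2.20 to 2.71 in vehicle cells at 48 h. Irf9, Ifitm1, and Ifnar2 and Samhd1 on their main probe sets, had vehicle changes of 0.76 to 1.23 beside TCDD changes of 0.22 to 0.78. Of these TCDD changes that of Ifitm1 (0.22 ± 0.078, adjusted p = 0.0784, and 0.045 with the replicate block) was not called. These 2 comparisons share no array. The groups of genes in this paragraph were picked from their values and carry no test of their own.

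**Figure D5:**
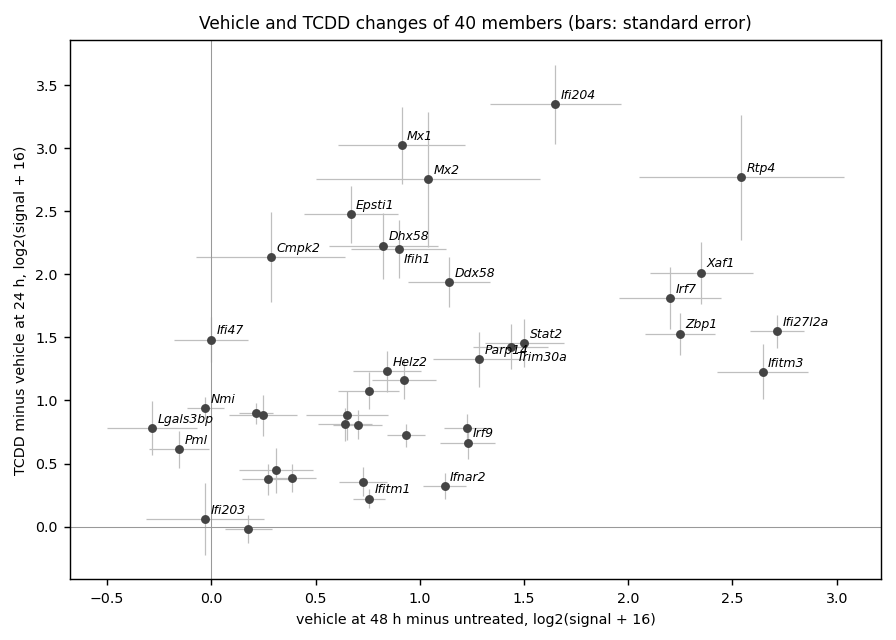
TCDD minus vehicle at 24 h (vertical) against vehicle at 48 h minus untreated (horizontal) for 40 members, in log2(signal + 16), with standard errors from limma (n = 4 arrays per group). Ifi204 is highest at 3.35, Ifi27l2a is farthest right at 2.71, and Ifi47 and Nmi lie near 0 on the horizontal axis.

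Probe sets of 1 gene mostly had the same sign with TCDD but differed in size. Of 22 members with several tested probe sets, 0 had probe sets of opposite sign in the mean TCDD effect and 1 at 24 h, Ifnar1, whose changes there were close to 0. In vehicle cells at 48 h 4 had opposite signs: Ifnar1, Ifnar2, Epsti1 and Pml. Another probe set of Epsti1 gave 2.76 at 24 h beside the 2.48 above, and a dimmer one gave 1.01. Dhx58 had 2.23 at 24 h on the probe set that represents it and 0.37 on a dimmer one, and Ddx58 had 1.20 and 0.27 at 12 h. The mean effect of Adar, not called on its brightest probe set (0.12), was 0.31 on another and called there. When the probe sets of each gene were averaged, 14 of 278 calls were lost with the sign kept. In 1 more, that of Ifnar2 in vehicle cells at 48 h, the sign reversed.

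The gene lists that follow were also chosen with earlier results of these data known. Of 20 tested genes that encode interferons or induce them, 3 rose and 0 fell with TCDD at 24 h, with a median change of 0.14, where 4.8% of all genes rose and 2.77% fell. In the mean effect 6 rose and 2 fell, against 11.1% and 9.86% of all genes. Ifng, interferon gamma, rose by 2.82 ± 0.32 at 24 h (adjusted p = 5.14e-08) and Tlr7, an RNA receptor, by 1.53 ± 0.13. Ifnb1, interferon beta, rose by 0.88 ± 0.24 (adjusted p = 0.017) at 24 h, its only called time with TCDD. Ifng also rose at 8 h (1.24), 12 h (1.03), 36 h (2.86) and 48 h (3.36). Ticam1, a TLR adaptor, fell by 0.81 at 48 h, and Ly96, the LPS co-receptor, by 0.65 at both 36 and 48 h. The 2 that fell in the mean effect were Ly96 (-0.53 ± 0.079) and Ifna1, an interferon alpha gene (-0.52 ± 0.19, adjusted p = 0.0498). In vehicle cells Tlr7 fell by 1.31 and Tlr4 by 0.68 at 24 h.

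Of 23 tested genes of interferon receptor signalling and its feedback, 8 rose and 0 fell with TCDD at 24 h (median 0.17). Of all genes 4.8% rose and 2.77% fell at that time. At 48 h 4 rose and 3 fell, where 4.31% of all genes rose and 4.54% fell. In the mean effect 10 rose and 2 fell, against 11.1% and 9.86% of all genes. Usp18, a protease that damps the receptor, rose by 3.72 ± 0.28 (adjusted p = 2.19e-12) at 24 h, Irf8 by 1.59 ± 0.20, Socs1, an inhibitor of Janus kinases, by 1.26 ± 0.29 and Ptpn6, a tyrosine phosphatase, by 1.20 ± 0.14. At 8 h Jak2 (0.67 ± 0.12) and Irf1 (0.72 ± 0.15) rose. Among 44 other interferon-stimulated genes, 36 rose and 0 fell at 24 h (4.8% and 2.77% of all genes), with a median of 1.75. The median was 0.33 at 8 h, 0.88 at 12 h, 0.93 at 36 h and 0.57 at 48 h. Oasl2 (4.32 ± 0.32), Ifit3 (3.66 ± 0.26), Ifit1 (3.61 ± 0.32) and Oas3 (3.38 ± 0.37) had the largest changes at 24 h. At 48 h the largest were those of Iigp1 (2.74 ± 0.21), Ddx60 (2.09 ± 0.31), Gbp7 (2.03 ± 0.19) and Gm4951 (1.97 ± 0.27).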

How the data were processed

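RNA from 44 CH12.LX cultures was hybridised to Affymetrix Mouse 430 2.0 arrays. The deposited values are signal intensities made by the authors with GCOS 1.0, per the submitters' processing notes; its settings are not given in these sources, and each column's mean is 500.0 with the lowest and highest 2% left out. Of 45101 probe sets, 64 controls were left out, and 34945 have 1 gene symbol in the platform annotation. Values were quantile normalized and taken as log2(value + 16). Each gene is represented by its brightest single-symbol probe set, and 11970 of 18193 genes had a highest group mean above 6.21, the median of all values.

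limma 3.58.1 in R 4.3.3 fitted 11 group means to all arrays, with two-sided tests and Benjamini-Hochberg adjustment over all genes tested, after the code was tested on simulated data. Figures used matplotlib 3.10.9 under Python 3.11.15. Replicate numbers mark days, per the series' design text: deviations from group means had a median correlation of 0.176 between arrays of the same number in different groups and -0.065 between different numbers, and exceeded 0.1 in 18 of 20 same-day TCDD and vehicle pairs.

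The members and gene lists were chosen with earlier results of these data known. Per-array values are given for 16 members: the 12 with the smallest p in the mean TCDD effect or in the test of its change with time, and the 6 with the largest vehicle change at 48 h, of which 2 are in both. Those of Cmpk2 and Mx2 were added after their values were seen. Alternatives were the day as a block, other filters, scalings, pseudocounts and probe set rules, an intensity trend, fits on the compared arrays alone, and leaving out replicates or 4 arrays. Tlr3 was below the filter.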

Additional observations from a re-analysis of the deposited data

Results flagged for a closer look

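Each of the 11 groups of 4 arrays was searched in the 16 members with per-array values and in the members' median. Of these 187 sets of values, 6 held an array far from the other 3, where chance gives about 1 in 20 groups. Ifi27l2a read 10.83 in vehicle replicate 4 at 12 h against 10.38 to 10.41 in the others, and that array is 1 of the 4 that stood apart. Ifi27l2a also read 13.61 in TCDD replicate 4 at 48 h, below 13.76 to 13.79. Ifih1 read 9.69 in vehicle replicate 3 at 12 h, above 9.13 to 9.16, and 11.17 in TCDD replicate 4 at 24 h, below 11.43 to 11.45. Irf7 read 8.86 in vehicle replicate 1 at 8 h, below 9.58 to 9.70. Xaf1 read 12.58 in TCDD replicate 2 at 12 h, above 12.02 to 12.09.

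The TCDD effect differed between the 5 times in 19 members by limma's test of the interaction (6.98% of all genes), and in 25 with the day as a replicate block (16%), where Irf7 had an adjusted p of 3.5e-05 and Lgals3bp of 0.000379. Among sensors the adjusted p was 0.0025 for Ifih1 (effects from 0.60 to 2.20), 0.00222 for Ddx58 (0.39 to 1.94), 0.00698 for Dhx58 (0.32 to 2.23) and 0.0457 for Zbp1 (0.50 to 1.53). Among enzymes and GTPases it was 0.000256 for Mx1, 0.000448 for Samhd1, 0.0159 for Helz2 and 0.0162 for Adar, whose effects ran from -0.31 to 0.40. It was 0.000211 for Bst2, 0.00585 for Trim30a, 0.0121 for Sp100 and 0.00115 for Ifi204. Of the remaining interferon-stimulated genes it was 2.35e-05 for Tor3a, 5.68e-05 for Ifi27l2a, 0.000292 for Epsti1, 0.00671 for Nmi, 0.0153 for Xaf1 and 0.045 for Ifi35. The receptor chain Ifnar1 had 0.0485, with effects from -0.23 to 0.41. Ifnar1, Zbp1 and Ifi35 were called in none of the 4 fits that leave out 1 replicate.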

How the results depend on the processing

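At 8 h, 5 members were called with TCDD, and 4.15% of all genes. The count was 10 with the day as a fixed replicate block (8.39% of all genes) and 11 with a random replicate block (7.83%). It was 2 with only the arrays compared (2.61%), 3 with no filter (2.21%) and 9 without the 4 arrays that stood apart (5.85%). At 48 h it was 12 (8.85% of all genes), and 6 with only the arrays compared (2.6%). With only the arrays compared, vehicle counts were 9, 7, 9 and 17 at 8, 12, 24 and 36 h (12.7%, 10.9%, 10.1% and 17.2%). Leaving out 1 replicate in turn gave 0 to 5 members with TCDD at 8 h (1.97% to 3.04% of all genes). It gave 17 to 26 at 12 h (4.25% to 7.69%) and 13 to 22 at 36 h (2.36% to 4.04%). At 48 h it gave 5 to 13 (3.77% to 6.83%). In vehicle cells 14 to 21 were called at 8 h (17.7% to 20.7%) and 11 to 18 at 24 h (13.5% to 18.5%). For the change of the effect with time the count was 5 to 14 (2.13% to 4.31%). The fixed replicate block ended no call. Of 278 called results, the number no longer called was 78 with only the arrays compared, 90 without replicate 2 and at most 47 without any other replicate. When the probe sets of a gene were averaged, the vehicle change was 0.262 for Trim25 at 8 h, -0.318 and -0.040 for Ifnar2 at 36 and 48 h, against the opposite sign on the main probe set. Without the 4 arrays Ifi47 had 0.505 at 48 h in vehicle cells. Fits with fewer arrays have less power by construction, and other causes were not tested. Dim members such as Mx2 have understated changes.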
